A study of Mus musculus with 6 samples.

Results

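Messenger RNAs of the mitochondrial respiratory chain and of ATP synthase were examined in mouse liver, gene by gene and complex by complex. Members were all genes whose symbol began with Ndufa, Ndufb, Ndufc, Ndufs, Ndufv, Sdha to Sdhd, Uqcr, Cox4 to Cox8 or Atp5 and that had a probe set carrying that symbol alone, which gave 93 genes and 119 probe sets out of 19938 genes and 35512 probe sets in the series. Of the 93, 80 encode subunits of the complexes and 13 encode assembly factors or related proteins that the letters of the rule also take in. The subunits divided into 34 of complex I, 4 of complex II, 8 of complex III, 17 of complex IV and 17 of complex V. Subunit genes without a probe set of a single symbol, such as Ndufb1, Ndufb4 and Cox7c, are not among the members. Nor is the complex III subunit gene Cyc1, whose symbol lies outside the rule. It was counted with the electron carriers below (log2 change -0.08, not called). A gene with several probe sets was represented by the brightest one.

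Liver RNA of 6 female mice of the C57BL/6 background was hybridised to one array each. The mice were 3 months old and had been deprived of food for 6 h. Both copies of Lmna carried the G609G allele in 3 mice, the knock-in replicates 1, 3 and 5, and the other 3 were wild-type, replicates 2, 4 and 6. The allele changes splicing of the lamin A transcript without changing the encoded amino acid, is present in the germline and so in every cell of the animal, and models Hutchinson-Gilford progeria. Values are intensities on a linear scale and are listed below in the order of these replicate numbers. Errors of log2 changes are limma's moderated standard errors with 3 mice per genotype. Their variances are drawn in part from all tested probe sets. Array medians ranged over 0.087 on the log2(value + 16) scale used for testing. The labels give each array its own animal, so p-values measure the spread between mice. Hepatocyte markers were bright, with summed intensities of 126940 to 132187 in knock-in and 118678 to 123818 in wild-type liver over the 9 measured of 10 listed.

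The respiratory chain passes electrons from NADH and succinate to oxygen. Complex I (NADH dehydrogenase) and complex II (succinate dehydrogenase) feed ubiquinone, complex III hands the electrons to cytochrome c, and complex IV (cytochrome c oxidase) reduces oxygen. Complexes I, III and IV pump protons across the inner membrane, and complex V (ATP synthase) uses their return flow to make ATP. Most subunits are encoded in the nucleus and a small core in mitochondrial DNA. In hepatocytes the chain reoxidises the cofactors of fatty acid oxidation and supplies the energy for gluconeogenesis and urea synthesis.

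The question was which of these transcripts change with the Lmna allele, and in which complexes. Knock-in liver had lower levels of 27 members and higher levels of none, at a limma adjusted p below 0.05 over all probe sets, while 65 members did not pass. The 27 lay mainly in complex I (12 of 34 subunits), complex II (3 of 4), complex V (5 of 17) and the assembly factors (5 of 13), with 2 of 16 in complex IV and 0 of 8 in complex III. Most differences were small, with fold changes of the called members between 1.25-fold (Sdhd) and 2.08-fold (Ndufaf1), and only 9 were both called and at least 1.5-fold lower. The background was 25.9% of 26664 tested probe sets called in either direction, 10.9% lower and 15% higher, against 29.3% of the 92 tested members lower. The median log2 change was -0.24 over the tested members and 0.03 over all tested probe sets. Knock-in values lay wholly below wild-type values for 43 of the 92 members, against 17.2% of all tested probe sets. Every called member was among these, so a lack of overlap is no separate evidence beside a call. At an unadjusted p below 0.05, 43 members passed, all of them lower. The share of all tested probe sets at that limit was not counted, and it is at least the 25.9% called after adjustment. Members are brighter than most probe sets, and with a filter at the 50th percentile of mean intensity 16.3% of the probe sets kept and 29 of 87 members were called lower.

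**Figure D1:**
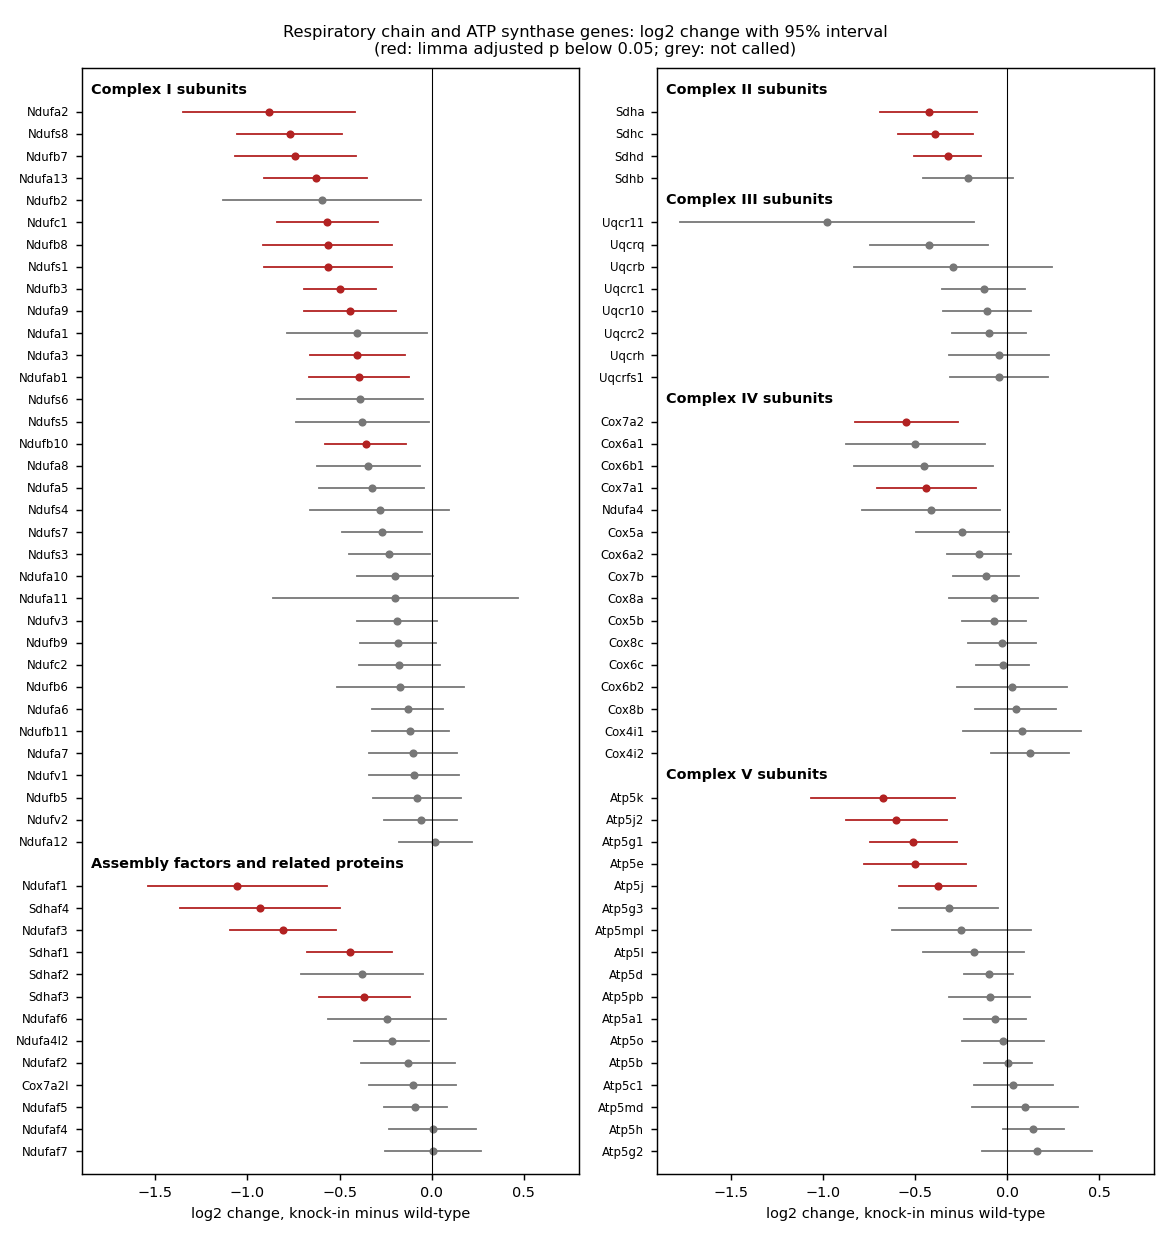
Fitted log2 change (x axis, knock-in minus wild-type on the log2(value + 16) scale) of the 92 tested members, with 95% intervals as bars, grouped by complex. Red points were called by limma at an adjusted p below 0.05 and grey points were not; all 27 red points lie below 0 and complex III has none.

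The number of calls depended on single mice. Leaving out knock-in replicate 1 gave 10 calls, leaving out either wild-type replicate 2 or wild-type replicate 6 gave 11, and leaving out knock-in replicate 3 gave 42, and no member was called higher in any of these fits. The share of all probe sets called lower moved with it, to 6.79% in the fit that left out knock-in replicate 1, 7.06% and 7.42% where wild-type replicates 2 and 6 were omitted, and 13.0% where knock-in replicate 3 was. Of the 27, 9 were called in each fit tried with the threshold of 0.05 and no fold limit, among them the 6 fits that left out a mouse: Ndufs8, Ndufb3, Ndufb7, Ndufa13, Ndufaf1, Ndufaf3, Sdhaf4, Atp5g1 and Atp5j2. Knock-in replicate 3 was the highest of the 3 knock-in mice for 21 of the 27 called members. Its median deviation from the wild-type means was -0.11 on the log2 scale over all tested members, against -0.31 and -0.29 in knock-in replicates 1 and 5.

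The medians of each complex in each mouse placed the genotypes apart to different degrees. They were taken relative to the wild-type mean of each gene, which keeps the wild-type medians small by construction. For complex I they were -0.45, -0.14 and -0.40 in knock-in livers, compared with 0.03, -0.08 and 0.02 in wild-type livers. For complex II they were -0.43, -0.23 and -0.35 against 0.02, -0.04 and 0.02. In both complexes every knock-in mouse lay below every wild-type mouse. For complex III the values were -0.23, -0.07 and -0.15 against 0.04, -0.15 and 0.06, and the genotypes overlapped through wild-type replicate 4. Complex IV had -0.14, -0.09 and -0.08 against 0.01, -0.01 and 0.01, again without overlap, and complex V had -0.16, -0.02 and -0.17 against 0.01, -0.04 and 0.02. The genotypes overlapped in complex V, where knock-in replicate 3 lay above wild-type replicate 4. The medians of the fitted log2 changes were -0.33 for complex I, -0.36 for complex II, -0.12 for complex III, -0.09 for complex IV and -0.10 for complex V. Without the isoforms restricted to other tissues, the median of complex IV was -0.18 over 10 subunits. Over the 11 subunits of complex V with exactly 1 probe set it was -0.25, a subset chosen after seeing the data. The difference between complexes was not tested, since the genes of a complex are not replicates. How often other gene sets of these sizes set the genotypes apart was not counted.

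**Figure D2:**
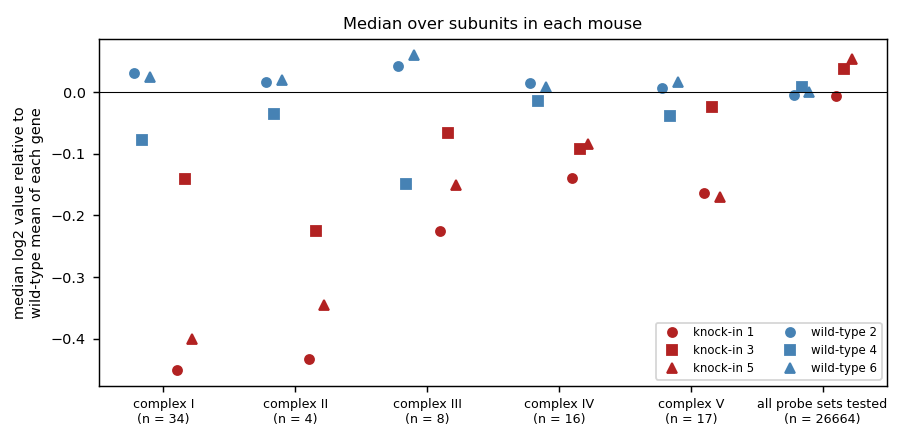
Median over the tested subunits of each complex (x axis, n subunits) of the log2 value relative to the wild-type mean of each gene (y axis), with one point per mouse. Knock-in mice (red) lie below wild-type mice (blue) in complexes I, II and IV and overlap with them in complexes III and V; the last column gives the same median over all 26664 tested probe sets.

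Complex I accounted for the largest group of lower transcripts. Its catalytic core is built from subunits conserved from bacteria, some of them encoded in mitochondrial DNA, and 6 core subunits encoded in the nucleus were among the members. Ndufs8, which carries iron-sulfur clusters close to the ubiquinone site, measured 1343, 1685 and 1275 in knock-in livers, compared with 2588, 2430 and 2314 in wild-type livers. Every knock-in value was below every wild-type value, and the fit placed the gene 1.71-fold lower (-0.77 ± 0.12 on the log2 scale; limma adjusted p = 0.00437). Ndufs1, the largest subunit and an iron-sulfur protein of the NADH-oxidising arm, read 745, 816 and 659 against 1221, 893 and 1207, a log2 change of -0.56 ± 0.15 (limma adjusted p = 0.0297). Leaving out any mouse but knock-in replicate 3 or wild-type replicate 4 ended this call. The other 4 core subunits did not pass. They were Ndufs7 (-0.27; limma adjusted p = 0.0717), Ndufs3 (-0.23; limma adjusted p = 0.118), the NADH-binding flavoprotein Ndufv1 (-0.10; limma adjusted p = 0.577) and Ndufv2 (-0.06; limma adjusted p = 0.665). The 95% interval of the log2 change was -0.34 to 0.15 for Ndufv1 and -0.26 to 0.14 for Ndufv2, so a 1.5-fold fall lies outside both.

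Among the 28 supernumerary subunits of complex I, which surround the core and are needed for its assembly and stability, 10 were called lower. This is 35.7%, against 10.9% of all tested probe sets. Ndufb3, a subunit of the membrane arm, was among them, at 167, 172 and 155 in knock-in and 232, 244 and 241 in wild-type liver. The genotypes were separated by more than their own ranges, with a log2 change of -0.50 ± 0.08 (limma adjusted p = 0.00551). Ndufb7, another membrane-arm subunit, read 342, 467 and 372 against 681, 593 and 720, 1.67-fold lower in the fit (-0.74 ± 0.14 on the log2 scale; limma adjusted p = 0.00843). Ndufa13, also known as GRIM-19, read 861, 1099 and 870 against 1533, 1380 and 1470, a log2 change of -0.63 ± 0.12 (limma adjusted p = 0.00871). All 3 of these genes were lower in each knock-in mouse than in any wild-type mouse. The widest fall among the called subunits was that of Ndufa2, a subunit of the matrix arm, at 560, 760 and 433 against 1132, 926 and 1148 (log2 change -0.88 ± 0.20; limma adjusted p = 0.0167), and its call ended when knock-in replicate 1, wild-type replicate 2 or wild-type replicate 6 was left out.

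The other 6 called supernumerary subunits had log2 changes between -0.57 and -0.36. Ndufc1 read 685, 769 and 792 against 1100, 1255 and 1001 (limma adjusted p = 0.0116), and Ndufb8, widely used as an indicator of assembled complex I, read 502, 702 and 563 against 816, 1000 and 807 (limma adjusted p = 0.0298). Ndufa9, which sits near the junction of both arms, read 1308, 1675 and 1471 against 1988, 2024 and 2030 (limma adjusted p = 0.0217). Ndufb10, Ndufa3 and Ndufab1, the mitochondrial acyl carrier protein, had log2 changes of -0.36, -0.40 and -0.39 (limma adjusted p = 0.0291, 0.0325 and 0.0433). In all 6 genes the genotypes did not overlap, and each of these calls was lost when at least one mouse was left out. Of the 18 supernumerary subunits that did not pass, Ndufa12 was the only one with a fitted value above 0, at 807, 815 and 792 against 785, 808 and 787 (log2 change 0.02 ± 0.08). Over complex I, 14 of the 22 subunits that did not pass had a 95% interval that lay within 1.5-fold in either direction. With one mouse left out, complex I had 4 (knock-in replicate 1), 5 (wild-type replicate 2, and also wild-type replicate 6), 8 (knock-in replicate 5) or 18 (knock-in replicate 3) subunits called lower, and 9 in the fit that left out wild-type replicate 4.

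**Figure D3:**
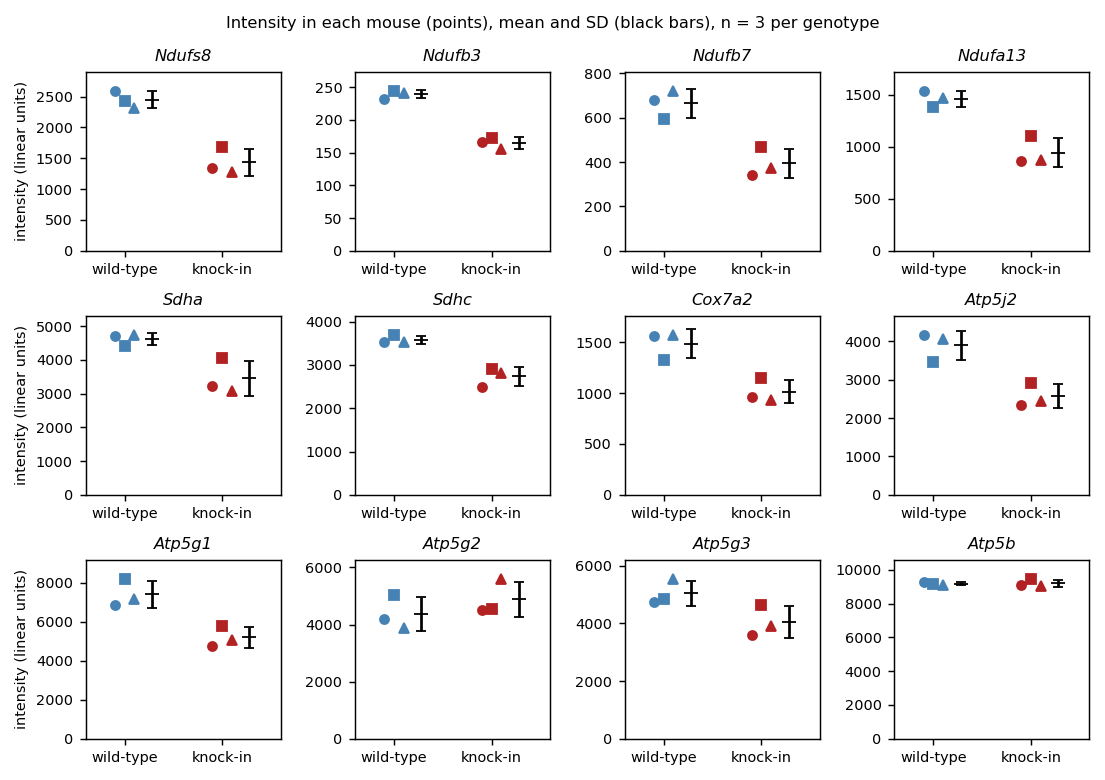
Intensity (y axis, linear units from 0) of 12 members in each mouse, wild-type in blue and knock-in in red; circles, squares and triangles are replicates 2, 4 and 6 in wild-type and 1, 3 and 5 in knock-in, and black bars give the mean and SD of 3 mice. The genotypes are apart for Ndufs8, Ndufb3, Ndufb7, Ndufa13, Sdha, Sdhc, Cox7a2, Atp5j2, Atp5g1 and Atp5g3 and overlap for Atp5g2 and Atp5b.

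Complex II is the one enzyme shared by the respiratory chain and the citric acid cycle, and all 4 of its subunits are encoded in the nucleus. The flavoprotein subunit Sdha read 3239, 4055 and 3085 in knock-in and 4703, 4422 and 4737 in wild-type liver, a log2 change of -0.43 ± 0.11 (limma adjusted p = 0.0296). Sdhc, a membrane anchor, read 2485, 2910 and 2819 against 3527, 3690 and 3536, a log2 change of -0.39 ± 0.09 (limma adjusted p = 0.0161). The other anchor subunit, Sdhd, read 1711, 1824 and 1722 against 2204, 2182 and 2200, a log2 change of -0.32 ± 0.08 (limma adjusted p = 0.0220), with an SD of 11.7 among the wild-type mice. These 3 genes showed no overlap between the genotypes. The iron-sulfur subunit Sdhb read 2317, 2803 and 2485 against 3111, 2675 and 3029, where knock-in replicate 3 exceeded wild-type replicate 4, and did not pass (log2 change -0.21 ± 0.10; limma adjusted p = 0.183). Leaving out knock-in replicate 1, wild-type replicate 2 or wild-type replicate 6 ended all 3 calls, leaving out knock-in replicate 5 kept a single call (1 of 4), and leaving out wild-type replicate 4 kept 2.

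Assembly factors of complexes I and II included some of the largest falls. Ndufaf1, an early assembly factor of the membrane arm, read 275, 298 and 191 against 587, 415 and 637, 2.08-fold lower in the fit (-1.06 ± 0.21 on the log2 scale; limma adjusted p = 0.00983). Ndufaf3, which acts in assembly of the arm that joins NADH oxidation to the membrane, read 320, 348 and 364 against 641, 524 and 684, a log2 change of -0.81 ± 0.12 (limma adjusted p = 0.00386). For both genes all 3 knock-in mice were below all wild-type mice. The other 5 measured Ndufaf genes did not pass, and Ndufaf4 and Ndufaf7 had log2 changes of 0.00 and 0.01 (limma adjusted p = 0.981 and 0.976).

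Of the 4 Sdhaf genes, which mature complex II, 3 were called lower, against 10.9% of all tested probe sets. Sdhaf4, which assists insertion of the flavoprotein subunit, read 81, 96 and 80 against 235, 131 and 181, a log2 change of -0.93 ± 0.19 (limma adjusted p = 0.0101). A second, dimmer probe set of Sdhaf4 read 56, 69 and 68 against 71, 68 and 67 and was not called, the only case among 18 members with several probe sets in which the calls differed. Sdhaf1, an iron-sulfur maturation factor, read 270, 236 and 266 against 373, 363 and 332 (limma adjusted p = 0.0153), and Sdhaf3 read 369, 413 and 378 against 545, 454 and 512 (limma adjusted p = 0.0403). Sdhaf2, needed for flavin attachment to Sdha, read 333, 378 and 265 against 462, 391 and 420 and did not pass (limma adjusted p = 0.0924), although its genotypes did not overlap. Over the 13 assembly factors and related proteins, the count of 5 went to 3 when wild-type replicate 2 was left out.

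At an unadjusted p below 0.05, 2 of the 8 complex III subunits passed, against at least 25.9% of all tested probe sets. At a limma adjusted p below 0.05, 0 of 8 passed. The nearest was Uqcrq, a small subunit bound to cytochrome b, at 1739, 2118 and 1537 against 2425, 2165 and 2629 (log2 change -0.43 ± 0.14; limma adjusted p = 0.0575). Its genotypes did not overlap, and it was called in 4 alternative fits: centred arrays, array weights, a filter at the 50th percentile and knock-in replicate 3 left out (limma adjusted p = 0.0493, 0.0144, 0.0434 and 0.0123). With any other mouse left out it was not called (limma adjusted p = 0.0645 to 0.177). Uqcrc1 and Uqcrc2, the large core proteins, read 2370, 2658 and 2533 against 2556, 3042 and 2676 and 5369, 5575 and 5199 against 6054, 5183 and 6102. Both overlapped between the genotypes, with 95% intervals of -0.35 to 0.10 and -0.30 to 0.10. The Rieske iron-sulfur protein gene Uqcrfs1 had a log2 change of -0.04 ± 0.11 and the hinge protein gene Uqcrh one of -0.04 ± 0.12 (limma adjusted p = 0.826 and 0.829).

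The small subunit gene Uqcr11 had the largest fitted difference of complex III and was not called. Its intensities were 1493, 1867 and 978 in knock-in livers, compared with 3710, 1664 and 3439 in wild-type livers. Wild-type replicate 4 was well below the other wild-type mice and inside the knock-in range, and knock-in replicate 5 was the lowest of all. The log2 change was -0.98 ± 0.34 (limma adjusted p = 0.0743), and leaving out wild-type replicate 4 gave -1.34 (limma adjusted p = 0.0190), while leaving out knock-in replicate 3 or using array weights also gave a call (limma adjusted p = 0.0464 and 0.0189).

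Wild-type replicate 4 and knock-in replicate 5 were low for other members as well. A range above 0.4 on the log2 scale among the wild-type mice was found for 13 of the 92 tested members (14.1%, and 15.9% of all tested probe sets). Wild-type replicate 4 was the lowest wild-type mouse for each of the 13, and for 11 of them knock-in replicate 5 was also the lowest knock-in mouse. Among all 4250 tested probe sets with such a range, wild-type replicate 4 was lowest in 1858 (43.7%), and both held in 1063. The limit of 0.4 was not part of the planned comparisons, and the pattern among members depends on it. Just under it, wild-type replicate 4 was the highest wild-type mouse for Atp5g2 and Atp5k (ranges 0.379 and 0.376). It was the lowest for Ndufa1 and Ndufaf3 (ranges 0.381 and 0.374). Uqcrb, a subunit at the ubiquinone site, read 5235, 5167 and 3305 against 6367, 4098 and 6312. Ndufa11 read 1734, 1648 and 944 against 1972, 1127 and 1837, and its values in wild-type replicate 4 and knock-in replicate 5 were both below those of the other 4 mice. The cytochrome c gene Cycs, which is no member and was chosen after its values were seen, read 7186, 6857 and 3496 against 6771, 3517 and 6126, with the same mice low. Only 3 of the 13, Sdhaf4, Ndufaf1 and Ndufs1, were called. The labels give no batch that separates these mice.

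**Figure D4:**
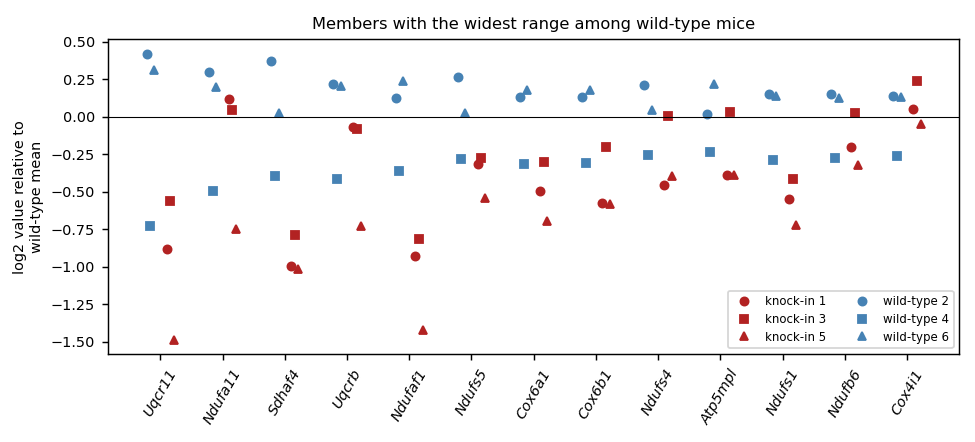
Log2 value relative to the wild-type mean (y axis) in each mouse for the 13 members with a wild-type range above 0.4, ordered by that range. Wild-type replicate 4 (blue squares) is the lowest wild-type mouse in all 13 and knock-in replicate 5 (red triangles) the lowest knock-in mouse in 11.

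In complex IV, 2 of 16 tested subunits were called lower (12.5%), a share near the 10.9% of all tested probe sets. Cox7a2, the form of subunit VIIa expressed in liver, read 963, 1145 and 934 in knock-in and 1564, 1324 and 1572 in wild-type liver. All knock-in values were below all wild-type values, with a log2 change of -0.55 ± 0.12 (limma adjusted p = 0.0146). Its heart and muscle counterpart Cox7a1 was dim, at 117, 161 and 139 against 192, 196 and 190, and was also called lower (log2 change -0.44 ± 0.12; limma adjusted p = 0.0286). Leaving out knock-in replicate 1, wild-type replicate 2 or wild-type replicate 6 left complex IV with no call, leaving out knock-in replicate 5 left 1, and leaving out knock-in replicate 3 gave 5. Markers of striated muscle and fat, tissues in which Cox7a1 is prominent, were measured beside it: of 9 tested, 1 was called higher and 0 lower, with summed intensities of 1031 to 1098 in knock-in and 967 to 1013 in wild-type liver over 12 genes. The part of such cells in the Cox7a1 result was not tested.

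Several ubiquitous complex IV subunits had fitted values below 0 without passing. Cox6a1 read 1769, 2023 and 1532 against 2740, 2005 and 2830 (log2 change -0.50 ± 0.16; limma adjusted p = 0.0587) and Cox6b1, which faces cytochrome c, read 2452, 3173 and 2440 against 4008, 2943 and 4138 (log2 change -0.45 ± 0.16; limma adjusted p = 0.0806). In both genes wild-type replicate 4 lay among the knock-in mice, and without it they were called, at -0.65 and -0.61 (limma adjusted p = 0.0217 and 0.0286). Leaving out knock-in replicate 3 also gave a call for each (limma adjusted p = 0.0347 and 0.0301). With any other mouse left out, neither was called (limma adjusted p = 0.143 to 0.177 for Cox6a1 and 0.201 to 0.226 for Cox6b1). Ndufa4, named as a complex I protein and later assigned to complex IV, read 982, 1470 and 1118 against 1682, 1384 and 1655 (log2 change -0.41 ± 0.16; limma adjusted p = 0.103). Cox4i1, the ubiquitous form of the regulatory subunit IV, read 2332, 2668 and 2181 against 2480, 1875 and 2467 and did not pass (log2 change 0.08 ± 0.14; 95% interval -0.24 to 0.40). Cox7b and Cox8a had log2 changes of -0.11 and -0.07 (limma adjusted p = 0.334 and 0.670), and Cox6c, the brightest member, had one of -0.02 ± 0.06. The supercomplex-associated factor gene Cox7a2l had a log2 change of -0.10 ± 0.10 (limma adjusted p = 0.524).

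Isoforms restricted to other tissues were dim in these livers, with wild-type means of 193 or less. Of 8 listed, Cox7b2 fell below the filter and was not tested, at 24 to 27 on all arrays. Cox6a2, the muscle form of subunit VIa, read 126, 120 and 130 against 143, 139 and 141 and Ndufa4l2, a relative of Ndufa4 known to be induced by hypoxia, read 58, 65 and 66 against 69, 74 and 85. Neither passed (limma adjusted p = 0.188 and 0.113), though in both the genotypes did not overlap. Cox4i2, Cox6b2, Cox8b and Cox8c had log2 changes between -0.03 and 0.12, with limma adjusted p between 0.373 and 0.917.

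In complex V, 1 of 5 subunits of the F1 part and 4 of 12 of the membrane part and stalk were called lower. Over all tested probe sets the share was 10.9%. The difference between the parts of complex V was not tested. Of the 5 subunits of the F1 part, which holds the catalytic head, Atp5b, the catalytic subunit, and its partners Atp5a1, Atp5c1 and Atp5d did not pass. Atp5b read 9129, 9459 and 9041 in knock-in and 9274, 9149 and 9121 in wild-type liver, and Atp5a1 read 5214, 5404 and 5697 against 5663, 5455 and 5948. Both overlapped between genotypes, and the 95% intervals of their log2 changes were -0.13 to 0.14 and -0.23 to 0.10. The fifth, Atp5e, a short subunit of the central stalk, read 290, 324 and 386 against 477, 466 and 482, a log2 change of -0.50 ± 0.12 (limma adjusted p = 0.0199). In the membrane part, Atp5j2 read 2340, 2924 and 2432 against 4163, 3462 and 4050 (log2 change -0.60 ± 0.12; limma adjusted p = 0.00947), and Atp5k, which takes part in joining the enzyme into dimers, read 325, 484 and 433 against 575, 751 and 667 (log2 change -0.67 ± 0.17; limma adjusted p = 0.0235). Atp5j, coupling factor 6 of the peripheral stalk, read 3237, 3902 and 3522 against 4695, 4467 and 4661 (log2 change -0.38 ± 0.09; limma adjusted p = 0.0191). These genes showed no overlap between the genotypes. The 5 calls of complex V became 2 when knock-in replicate 1 or wild-type replicate 6 was left out, and 3 when wild-type replicate 2 was. Atp5h, another stalk subunit, was the one member whose knock-in values all lay above the wild-type values, at 3423, 3592 and 3435 against 3141, 3125 and 3187, and it did not pass (log2 change 0.14 ± 0.07; limma adjusted p = 0.187). The share of all tested probe sets with such a separation in this direction was not counted.

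The rotor ring of ATP synthase is built from the c subunit, which 3 genes encode with identical mature proteins. Atp5g1, which is known to respond to metabolic state, read 4766, 5801 and 5078 in knock-in and 6883, 8200 and 7183 in wild-type liver, 1.42-fold lower in the fit (-0.51 ± 0.10 on the log2 scale; limma adjusted p = 0.0104). Atp5g3 read 3584, 4652 and 3924 against 4741, 4826 and 5535, with no overlap, and did not pass (log2 change -0.32 ± 0.12; limma adjusted p = 0.0843). Atp5g2 read 4516, 4528 and 5595 against 4189, 5031 and 3865, with overlap, and did not pass (log2 change 0.16 ± 0.13; limma adjusted p = 0.414). Within each array, the log2 value of Atp5g1 minus that of Atp5g2 was 0.08, 0.36 and -0.14 in knock-in livers, compared with 0.71, 0.70 and 0.89 in wild-type livers. The difference between the genotypes was -0.67 (exact two-sided permutation test p = 0.10, the smallest that 3 mice against 3 allow, and 0.20 adjusted over 3 pairs). For Atp5g1 minus Atp5g3 it was -0.19 and for Atp5g3 minus Atp5g2 it was -0.48 (both exact p = 0.20, and 0.20 adjusted).

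Genes of the pathway outside the member list were counted from lists by role. Over all tested probe sets, 10.9% were called lower and 15% higher. Of 38 other assembly factors measured, 13 were called lower and 0 higher, with a median log2 change of -0.17. Cox15, which makes the heme of cytochrome c oxidase, read 208, 212 and 227 against 357, 374 and 418 (log2 change -0.78 ± 0.10; limma adjusted p = 0.00191). The complex I assembly gene Timmdc1 read 472, 591 and 434 against 1005, 927 and 1097, Tmem126b, of the same assembly step, had a log2 change of -0.90 ± 0.13, and Taco1, an activator of mitochondrial translation of cytochrome oxidase, one of -1.10 ± 0.15 (limma adjusted p = 0.00252, 0.00321 and 0.00264). In these 4 genes all knock-in mice were below all wild-type mice.

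Among 22 electron carriers and other points of entry, 5 were called lower and 2 higher, against 10.9% and 15% of all tested probe sets. Their median log2 change was -0.06. The mitochondrial glycerol phosphate dehydrogenase gene Gpd2 read 330, 529 and 258 against 907, 1060 and 1140 (log2 change -1.49 ± 0.24; limma adjusted p = 0.00459). Coq3, a methyltransferase of ubiquinone synthesis, read 420, 560 and 358 against 1184, 813 and 1323 (log2 change -1.28 ± 0.22; limma adjusted p = 0.00587). The ubiquinone kinase-like genes Coq8a and Coq8b were higher, with log2 changes of 0.82 ± 0.11 and 0.77 ± 0.21 (limma adjusted p = 0.00279 and 0.0317). The other 3 that were lower were Etfa, Etfb and Etfdh, which carry electrons from fatty acid oxidation to ubiquinone, with log2 changes of -0.43, -0.76 and -1.02 (limma adjusted p = 0.0388, 0.0398 and 0.0486). Of the 13 subunits encoded in mitochondrial DNA, 2 had a probe set with a single symbol. COX2 read 12242, 10301 and 10019 against 10085, 9448 and 9652 and ND3 read 8298, 7831 and 7579 against 7434, 7125 and 6839, and neither passed (log2 changes 0.15 ± 0.09 and 0.15 ± 0.07; limma adjusted p = 0.251 and 0.161).

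Of 24 regulators of these genes that were measured, 8 were called higher and 2 lower, against 15% and 10.9% of all tested probe sets. The coactivator gene Ppargc1a, which drives mitochondrial gene expression and gluconeogenesis, read 6447, 5678 and 5635 against 871, 1433 and 1346 (log2 change 2.30 ± 0.18; limma adjusted p = 0.000472). Its relative Ppargc1b and the deacetylase gene Sirt1 had log2 changes of 1.17 ± 0.18 and 1.10 ± 0.12 (limma adjusted p = 0.00391 and 0.00130). Myc, a growth-related transcription factor, was also higher (2.84 ± 0.33; limma adjusted p = 0.00148), while Ppara, the nuclear receptor of fatty acid oxidation, was lower (-1.56 ± 0.19; limma adjusted p = 0.00169). Nrf1, a transcription factor of respiratory chain promoters, was called higher (0.43 ± 0.12; limma adjusted p = 0.0330), whereas Gabpa and Esrra, factors of the same kind, did not pass (0.04 and 0.06; limma adjusted p = 0.815 and 0.814). Tfam, which maintains and transcribes mitochondrial DNA, read 188, 196 and 152 against 258, 202 and 285 and did not pass (-0.44 ± 0.15; limma adjusted p = 0.0693). Ppargc1b, Nrf1, Gabpa, Esrra and Tfam were named after their values were seen.

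Of 21 general markers of mitochondria that were measured, 2 were called higher and 2 lower, against 15% and 10.9% of all tested probe sets. Their median log2 change was -0.02, and their summed intensity was 43650 to 45962 in knock-in and 43470 to 45478 in wild-type liver. Citrate synthase, Cs, read 1125, 1213 and 1096 against 2049, 2563 and 2109 (log2 change -0.95 ± 0.11; limma adjusted p = 0.00158), and Vdac3, a channel of the outer membrane, had a log2 change of -0.48 ± 0.12 (limma adjusted p = 0.0225). Tomm20, an import receptor, and Tomm40, the import channel, were higher (0.85 ± 0.10 and 0.55 ± 0.12; limma adjusted p = 0.00171 and 0.0159).

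**Figure D5:**
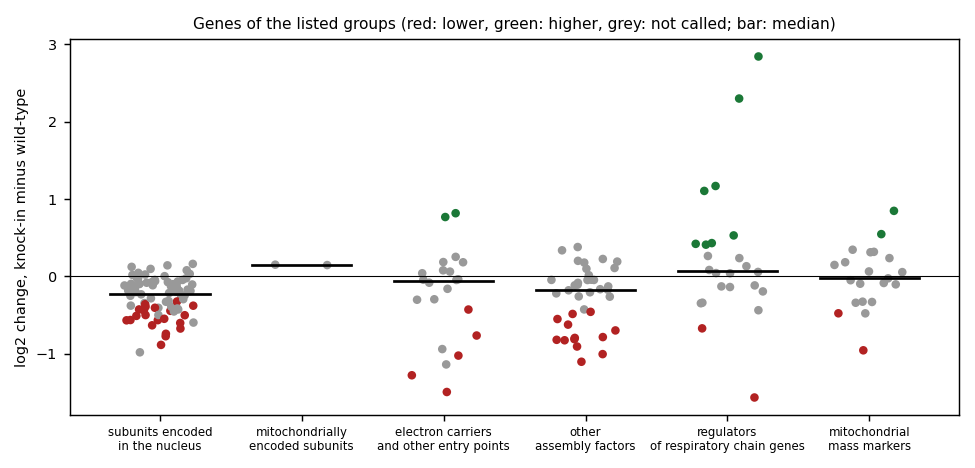
Fitted log2 change (y axis) of single genes in the nuclear-encoded subunits and in 5 lists of related genes, with the median of each group as a black bar. Called genes are red (lower) or green (higher); the subunits have red points only, and the regulators have 8 green and 2 red points.

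In whole liver, fewer cells of a type and less RNA per cell cannot be told apart. The marker counts below stand beside 10.9% of all tested probe sets called lower and 15% called higher. Of the hepatocyte markers, 3 were called higher and 1 lower of 9 tested. Of 8 sinusoidal endothelial markers, 5 were lower and 1 higher, with summed intensities of 5459 to 7222 in knock-in and 6588 to 7168 in wild-type liver. Kupffer cell and macrophage markers had 1 of 8 lower and sums of 2175 to 4197 against 3734 to 6361, and stellate cell markers had 1 lower and 1 higher of 8 with sums of 7831 to 9301 against 6956 to 8021. Cholangiocyte markers had 0 of 4 called in the limma fit (0 of 4 at an unadjusted p below 0.05), at sums of 368 to 394 against 367 to 391, and lymphocyte markers had 1 of 6 lower, at 568 to 671 against 674 to 792. The lymphocyte markers Cd79a and Ms4a1 lay under the filter. Median log2 changes were -0.49 for Kupffer cell and macrophage markers and -0.43 for sinusoidal endothelial markers, beside -0.24 for the tested members. They were -0.18 for lymphocyte, -0.08 for stellate cell, -0.01 for cholangiocyte and 0.03 for hepatocyte markers. The part of these cells in the changes of the members was not tested.

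Promoter sequences of the members were searched for 4 short motifs of factors known at respiratory chain genes. RefSeq promoters (GRCm38.p6, 250 bases before to 50 after the start site) were found for 77 of the 93 members (82.8%), and both strands were searched. The ETS motif CCGGAAG, bound by factors such as GABPA, was in 21 of 77 (27.3%), against 9.93% of all 27025 genes with a promoter. The YY1 motif AAGATGGC was in 10 (13%, against 3.19%), the palindromic NRF1 motif in 7 (9.09%, against 1.07%) and the ERR alpha motif TNAAGGTCA in 2 (2.6%, against 1.43%). Among the 24 members called lower that had a promoter, 9 held the ETS motif and 6 the YY1 motif, and among the 53 others 12 and 4 did. The NRF1 motif was in 1 of the 24 and 6 of the 53, and the ERR alpha motif in 1 of each. No match overlapped another in the windows shown. The motif sets were not compared by a test, and a match does not show binding. The 5 called subunits with a match wholly before the start site are shown 5′ to 3′ along the gene, with the motif in capitals and 30 bases or fewer on each side, because their transcripts were lower in knock-in liver. The match before the start site is the ETS motif in Ndufb7 and, on the opposite strand, in Sdhd and Atp5e, YY1 followed by ETS in Atp5j, and NRF1 in Atp5k. The windows lie at chr8:83566708-83566757 on the plus strand (Ndufb7), chr9:50603859-50603925 on the minus strand (Sdhd), chr2:174464167-174464233 on the minus strand (Atp5e), chr16:84835001-84835094 on the minus strand (Atp5j) and chr5:108434410-108434479 on the minus strand (Atp5k).
Ndufb7: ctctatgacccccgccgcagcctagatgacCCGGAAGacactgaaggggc
Sdhd: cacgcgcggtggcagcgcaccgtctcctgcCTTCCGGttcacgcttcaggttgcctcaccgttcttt
Atp5e: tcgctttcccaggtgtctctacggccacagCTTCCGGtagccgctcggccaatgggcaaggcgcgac
Atp5j: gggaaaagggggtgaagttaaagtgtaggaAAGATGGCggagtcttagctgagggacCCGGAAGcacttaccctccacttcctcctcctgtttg
Atp5k: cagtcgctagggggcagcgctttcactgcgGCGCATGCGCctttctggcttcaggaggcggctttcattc
These sequences come from the reference annotation and not from the mice studied. Matches after the start site are not shown: ETS in Ndufs8 and Atp5k, ERR alpha in Sdhd, and YY1 in Ndufa3, Ndufa9, Ndufb8, Ndufc1 and Atp5j2.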

How the data were processed

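Gene expression was measured on 1-colour microarrays, one per mouse. The authors' deposited intensities are linear whole numbers, and their probe summary, background correction and normalization are not given in the sources used here. Gene names came from GEO's annotation of the platform, which may be out of date: 21789 probe sets had 1 symbol, 1621 several and 12102 none. All 93 member symbols equalled RefSeq's. Many of these genes have processed pseudogenes, so which copy a probe set reads is uncertain. Apart from Sdhaf4, the log2 changes of the several probe sets of a member differed by 0.14 at most (17 members).

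Intensities were transformed as log2(value + 16), a scale that understates changes of dim genes. Array medians ranged over 0.087 on that scale and 0.101 on the plain log2 scale, against a limit of 0.1 set for centring the arrays. The limit was read on the scale of the fit, after both results had been seen, so the arrays were not centred, and centring is an alternative. A filter at the 25th percentile of mean intensity kept 26664 probe sets, which were fitted with limma 3.58.1 in R 4.3.3 (lmFit, eBayes with trend; knock-in minus wild-type; Benjamini-Hochberg over all probe sets; threshold 0.05). The procedure was tested on simulated data.

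Members and lists were chosen with earlier results of these data known. Named by rule are the 4 called members of each complex with the smallest p, the Sdh subunits, tissue-restricted isoforms and their ubiquitous partners, the c-subunit genes, members whose probe sets disagree, and up to 4 genes by smallest p of each related list. All other genes named were chosen after their values were seen.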

Additional observations from a re-analysis of the deposited data

How the results depend on the processing

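The direction of all 27 calls held under each alternative: pseudocounts of 1 and 64, quantile normalization, centred arrays, no filter or one at the 50th percentile, eBayes without trend or with a robust prior, array weights, the mean of a gene's probe sets, other call thresholds and each mouse left out. The genotypes overlapped for none of the 27, so only quantile normalization, centring and the mean of probe sets could have changed a direction. Of the 27, 23 had exactly 1 probe set, within a subset of 74 members chosen after seeing the data. Their fits are the same in that subset, so it is no separate check. No member was called higher in any alternative, while 14 members that were not called changed sign in at least one. The number called lower was 43 with array weights, 9 with a 1.5-fold limit and 10 to 42 with single mice left out. It was 30 with centred arrays, where 47.8% of the calls among all probe sets were higher, against 57.8% without centring. The share of all tested probe sets called lower moved too, from 10.9% to 14.1% with array weights and 12.8% with centred arrays. With single mice left out it was 6.79% to 13.0%. For the 1.5-fold limit that share was not counted. Of the 27, 18 lost their call without at least one mouse. The median log2 change of complex IV was -0.14 with centred arrays, -0.15 with the filter at the 50th percentile, -0.15 over members with 1 probe set, and -0.128 to -0.087 with single mice left out. That of complex V was -0.25 over members with 1 probe set. No paired analysis was possible because the genotypes share no replicate number. Of the 65 members not called, 48 had a 95% interval within 1.5-fold, and for the rest 3 mice per genotype do not settle a change of that size.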

Other observations

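Probe sets that carry several gene symbols stood outside the member list. Cox7c, a complex IV subunit, shares 3 of them with Gm12338, and one of these read 9360, 9379 and 9060 in knock-in and 9080, 8672 and 9124 in wild-type liver, with no call for any of the 3. A pair that names Ndufb4 and Ndufb4b, of complex I, had log2 changes of -0.19 ± 0.09 and -0.20 ± 0.08 and was not called (limma adjusted p = 0.140 and 0.119). The probe set shared by Ndufs5 and its pseudogene was called lower, at 137, 155 and 120 against 242, 196 and 213 (log2 change -0.61 ± 0.12; limma adjusted p = 0.00982). The probe set of Ndufs5 alone read 278, 286 and 235 against 422, 284 and 355 and was not called (limma adjusted p = 0.118).

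Nnt, the proton-driven transhydrogenase that makes NADPH in mitochondria, measured 396, 1173 and 1169 in knock-in livers, compared with 1944, 1674 and 1842 in wild-type livers, so knock-in replicate 1 stood apart from the other knock-in mice. It did not pass (log2 change -1.14 ± 0.38; limma adjusted p = 0.0673).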
